A study of Mus musculus with 10 samples.

Results

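The miR-106b-25 and miR-106a-363 clusters are paralogues of the miR-17-92 cluster, and their mature miRNAs were followed here through heart development in the mouse. Members were chosen by name in the table of mature miRNAs: both arms of miR-106b, miR-93 and miR-25 for the first cluster, and both arms of miR-106a, miR-18b, miR-20b and miR-363 for the second. The rule found 14 of the 1908 miRNAs listed, 6 for miR-106b-25 and 8 for miR-106a-363. Of these 14, 11 reached 10 counts in 1 or more libraries, all 6 of miR-106b-25 and 5 of miR-106a-363. The other 3 were miR-106a-3p, with no count in any library, and miR-18b-3p and miR-20b-3p, with 0 or 1 count in each.

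Hearts of C57BL/6 mice were sampled on embryonic days 10.5, 14.5 and 17.5 (written E10.5, E14.5 and E17.5), in newborns and in adults, and the labels name no treatment or difference in genotype. They give cardiomyocyte as the cell type but whole heart tissue as the source. Each of the 5 stages gave 1 small RNA library, so no difference between stages could be tested, and "lower" or "higher" describes these libraries. The sources used here do not give the number of hearts in a library. The intervals below are 95% intervals that cover counting error only, not the spread between animals.

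Animal miRNAs are cut as pairs of arms from hairpins in a longer transcript, and bases 2 to 8 of the mature strand, the seed, largely set which transcripts it pairs with. The miR-17 clusters are best known from dividing cells, where MYC and E2F factors drive their transcription and where their members restrain cell cycle inhibitors such as p21 and pro-apoptotic BIM. In mice, loss of miR-17-92 impairs development of the heart and lungs, while mice lacking either paralogous cluster alone were reported viable. The miR-106b-25 hairpins sit in an intron of Mcm7, which encodes a subunit of the replicative DNA helicase. In the mouse genome build GRCm38.p6, RefSeq places its 3 hairpins at chr5:138165321-138165818 on the minus strand, inside the interval of Mcm7. It places the 6 hairpins of the miR-106a-363 cluster at chrX:52741693-52742567, also on the minus strand. The 2 hairpins of that cluster that the name rule leaves out, miR-19b-2 and miR-92a-2, share their 3p arms with miR-17-92, so counts of those arms cannot be given to either cluster.

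RefSeq (GRCm38.p6) held a mature sequence for 13 of the 14 members. The arms that carried most counts, except for miR-106b, are shown with their relatives in miR-17-92. Their seeds group them, and some differ by so few bases that the assignment of reads matters. For miR-106b the list holds its minor arm, miR-106b-5p, and the major arm, miR-106b-3p, is shown further below. The seed is in capitals. The seed AAAGUGC was shared by members of both clusters and of miR-17-92:
miR-106b-5p: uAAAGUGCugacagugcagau
miR-93-5p: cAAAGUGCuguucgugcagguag
miR-106a-5p: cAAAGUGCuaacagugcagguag
miR-20b-5p: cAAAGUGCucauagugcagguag
miR-17-5p: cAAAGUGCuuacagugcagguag
miR-20a-5p: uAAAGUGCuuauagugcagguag
The seed AAGGUGC was held by miR-18b and its relative miR-18a:
miR-18b-5p: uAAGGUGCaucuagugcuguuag
miR-18a-5p: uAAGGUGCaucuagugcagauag
The seed AUUGCAC was held by the last hairpin of each cluster:
miR-25-3p: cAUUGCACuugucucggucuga
miR-363-3p: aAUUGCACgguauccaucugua
miR-92a-3p: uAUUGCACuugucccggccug
With positions counted from 1 at the 5′ end and the base of the first-named miRNA given first, miR-17-5p and miR-106a-5p differed by the single substitution U10A. miR-20a-5p and miR-20b-5p differed by U1C and U10C, and miR-18a-5p and miR-18b-5p by A18U and A20U. miR-25-3p differed from miR-92a-3p at 3 of 21 positions. miR-363-3p was far more distinct, with 8 differences from the closest miRNA of the table, miR-367-3p. The sources used here do not say how reads were divided between near-identical miRNAs, so miR-106a-5p, miR-20b-5p and miR-18b-5p are individually uncertain.

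The 5 small RNA libraries held 10479309 to 12953867 counts, and 3 counts, the limit that a count of 0 allows, came to 0.286 counts per 1000000 counts (CPM) in the E10.5 library and 0.232 in that of adults. Of the miRNAs known from other cell types, the neural miR-9-5p stood at 13011 CPM in the newborn library, against 403 to 834 CPM in the other 4, so comparisons of the adult with the newborn are given beside those of the adult with E17.5. The 5 listed cardiomyocyte miRNAs summed to 51949 CPM in E10.5 hearts, 52839 in E14.5 hearts, 70708 in E17.5 hearts, 102733 in newborns and 242063 in adults. Most of this was miR-1a-3p, at 224767 CPM in the adult. miR-1a-3p, miR-133a-3p and miR-208a-3p were higher in the adult than in the newborn. miR-208b-3p was lower (24.3 against 831 CPM), as was miR-499-5p (3752 against 6441 CPM). In whole tissue, fewer cells of a type and less RNA per cell cannot be told apart.

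By the arms in the name rule, miR-106b-25 was the larger cluster at every stage. Its 6 arms summed to 13079 CPM in E10.5 hearts, 7210 in E14.5 hearts, 5539 in E17.5 hearts, 3773 in newborns and 2100 in adults. The 8 arms of miR-106a-363 summed to 148 CPM in E10.5 hearts, 99.2 in E14.5 hearts, 13.9 in E17.5 hearts, 6.20 in newborns and 3.63 in adults. That sum leaves out the 3p arms shared with miR-17-92. Of those arms, miR-92a-3p stood at 28522 CPM at E10.5, and its X-linked part is unknown. In CPM both sums were lower at each later stage, though under median-ratio scaling the miR-106b-25 sum was not lower in the adult than in the newborn (log2 ratio 0.36) or at E17.5 (0.034), nor the miR-106a-363 sum at E14.5 against E10.5 (0.13) or in the adult against the newborn (0.43). Between E17.5 and E14.5 the miR-106b-25 sum had its narrowest gap in CPM and the miR-106a-363 sum its widest, and there both kept their direction under each scaling. The adult sum of miR-106b-25 was 6.23-fold lower than at E10.5 (6.15 to 6.31), and that of miR-106a-363 was 40.7-fold lower (30.5 to 55.7). These log2 ratios, -2.64 and -5.35 in CPM, were -0.26 and -2.97 under median-ratio scaling.

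**Figure D1:**
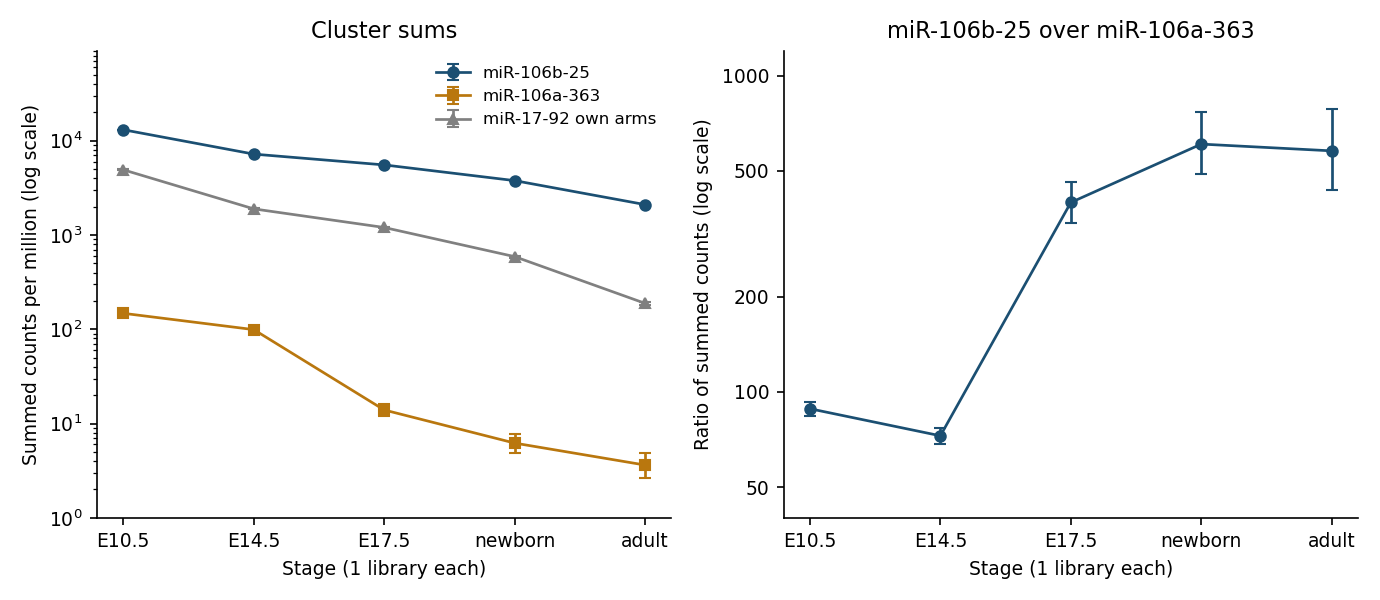
Left, summed CPM of each cluster at the 5 stages on a log axis, with the arms particular to miR-17-92 for reference; right, the ratio of the miR-106b-25 counts to the miR-106a-363 counts inside each library, on a log axis. Bars are 95% exact intervals of counting error, 1 library a stage. Sums of miR-106b-25 and miR-106a-363 hold the arms of the name rule only. The ratio stood at 88.5 and 72.7 at E10.5 and E14.5 and between 398 and 608 from E17.5 on.

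A ratio taken inside a library does not depend on how libraries are scaled to each other. The ratio here covers the arms of the name rule only and is not one of whole clusters. For each count of miR-106a-363 there were 88.5 counts of miR-106b-25 in E10.5 hearts (84.2 to 93.1), 72.7 in E14.5 hearts (68.6 to 77.1), 398 in E17.5 hearts (343 to 463), 608 in newborns (488 to 768) and 579 in adults (435 to 788). The ratio was thus 5.47-fold higher at E17.5 than at E14.5 (4.67 to 6.40), while between the adult and the newborn it differed by 0.952-fold, within counting error (0.663 to 1.37). At E14.5 it was slightly below that at E10.5, at 0.821-fold (0.760 to 0.887). In the newborn it was 1.53-fold higher than at E17.5 (1.17 to 1.99), and in the adult 1.46-fold higher than at E17.5 (1.06 to 2.01), so the widest gap between neighbouring stages lay between E17.5 and E14.5. With the top hairpin of each cluster, miR-25 and miR-363, left out, that gap was still the widest of these, at 2.10 in place of 2.45 on the log2 scale. The change in the newborn against E17.5 was then 1.01 in place of 0.61, still upward. That in the adult against E17.5 turned from 0.54 to -0.17, and that in the adult against the newborn was -1.18 in place of -0.07. The adult ratio thus rested on those hairpins.

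Within miR-106b-25, miR-25-3p carried most of the counts. miR-25-3p, of the miR-92 seed family, had 103674 counts in E10.5 hearts, 65553 in E14.5 hearts, 57063 in E17.5 hearts, 38384 in newborns and 24350 in adults (9893, 5687, 4441, 3015 and 1880 CPM, in the same order). It was the highest member in every library, at least 5.39 times the next. In the adult it was 5.26-fold lower in CPM than at E10.5 (5.19 to 5.34), a log2 difference of -2.40 that was -0.015 under median-ratio scaling. In CPM the adult was 1.60-fold lower than the newborn (1.58 to 1.63) and 2.36-fold lower than E17.5 (2.33 to 2.40), and the log2 differences of -0.68 and -1.24 turned to 0.52 and 0.19 under median-ratio scaling. Its hairpin made up 76.6% of the cluster's counts in E10.5 hearts, 79.4% in E14.5 hearts, 80.6% in E17.5 hearts, 80.4% in newborns and 89.8% in adults.

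miR-93-5p, a miR-17 seed member, had 11649 counts in E10.5 hearts, 5918 in E14.5 hearts, 4565 in E17.5 hearts, 2976 in newborns and 1048 in adults (1112, 513, 355, 234 and 80.9 CPM). In CPM it was 13.7-fold lower in adult than in E10.5 hearts (12.9 to 14.7), 2.89-fold lower in the adult than in the newborn (2.69 to 3.10) and 4.39-fold lower in the adult than at E17.5 (4.11 to 4.70). Its log2 differences in these 3 comparisons, -3.76, -1.52 and -2.12, were -1.39, -0.32 and -0.70 under median-ratio scaling. miR-25-3p thus outnumbered it more and more: 8.90 counts of miR-25-3p stood against each of miR-93-5p in E10.5 hearts, 11.1 in E14.5 hearts, 12.5 in E17.5 hearts, 12.9 in newborns and 23.2 in adults. Across birth this ratio held within counting error (1.03-fold in the newborn against E17.5, 0.984 to 1.08), and in the adult it was 1.80-fold that of the newborn (1.68 to 1.94) and 1.86-fold that at E17.5 (1.74 to 1.99). The 3 hairpins span 498 bases.

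In the miR-106b hairpin the arm without the miR-17 seed was the abundant one. The arm with the miR-17 seed, miR-106b-5p, had 1133 counts in E10.5 hearts, 609 in E14.5 hearts, 543 in E17.5 hearts, 426 in newborns and 187 in adults. The opposite arm, miR-106b-3p, had 19247 counts in E10.5 hearts, 10560 in E14.5 hearts, 8689 in E17.5 hearts, 5983 in newborns and 1516 in adults. The 3p arm made up 94.4% of the hairpin's counts in E10.5 hearts (Wilson 94.1 to 94.7), 94.5% in E14.5 hearts (94.1 to 94.95), 94.1% in E17.5 hearts (93.6 to 94.6), 93.4% in newborns (92.7 to 93.9) and 89.0% in adults (87.4 to 90.4). In CPM the adult lay below the newborn by 4.02-fold for miR-106b-3p (3.79 to 4.25) and 2.32-fold for miR-106b-5p (1.95 to 2.77), and below E17.5 by 5.78-fold (5.47 to 6.11) and 2.93-fold (2.47 to 3.48). Under median-ratio scaling the log2 differences from the newborn were -0.80 for miR-106b-3p and -0.0076 for miR-106b-5p, so neither reached a 2-fold difference, and those from E17.5 were -1.09 and -0.11. The hairpin is shown with both arms in capitals, the 5p arm first, since its arms divide the counts this way:
Mir106b: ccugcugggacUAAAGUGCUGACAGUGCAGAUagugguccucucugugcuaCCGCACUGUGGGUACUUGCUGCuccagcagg
The mature 3p arm, with its own seed in capitals, shares no seed with any other member:
miR-106b-3p: cCGCACUGuggguacuugcugc
Ligation and amplification can favour some small RNA ends over others, and this was not measured here, so ratios between arms or between miRNAs describe counts rather than molecules.

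The minor arms of the other miR-106b-25 hairpins were scarce. miR-25-5p had 1262 counts in E10.5 hearts, 426 in E14.5 hearts, 278 in E17.5 hearts, 259 in newborns and 92 in adults, and its share of its hairpin lay below 2% throughout. The major arm, miR-25-3p, made up 98.8% of the hairpin in E10.5 hearts (98.7 to 98.9), 99.4% in E14.5 hearts, 99.5% in E17.5 hearts, 99.3% in newborns and 99.6% in adults (99.5 to 99.7). miR-25-5p was 16.96-fold lower in adult than in E10.5 hearts (13.7 to 21.2) in CPM, against the 5.26-fold of miR-25-3p, and under median-ratio scaling its log2 difference was -1.65 in place of -3.91. miR-93-3p had 89 counts in E10.5 hearts, 35 in E14.5 hearts, 26 in E17.5 hearts, 15 in newborns and 14 in adults, so that the adult was within counting error of the newborn (0.917-fold, 0.410 to 2.04) and of E17.5 (0.534-fold, 0.258 to 1.06).

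**Figure D2:**
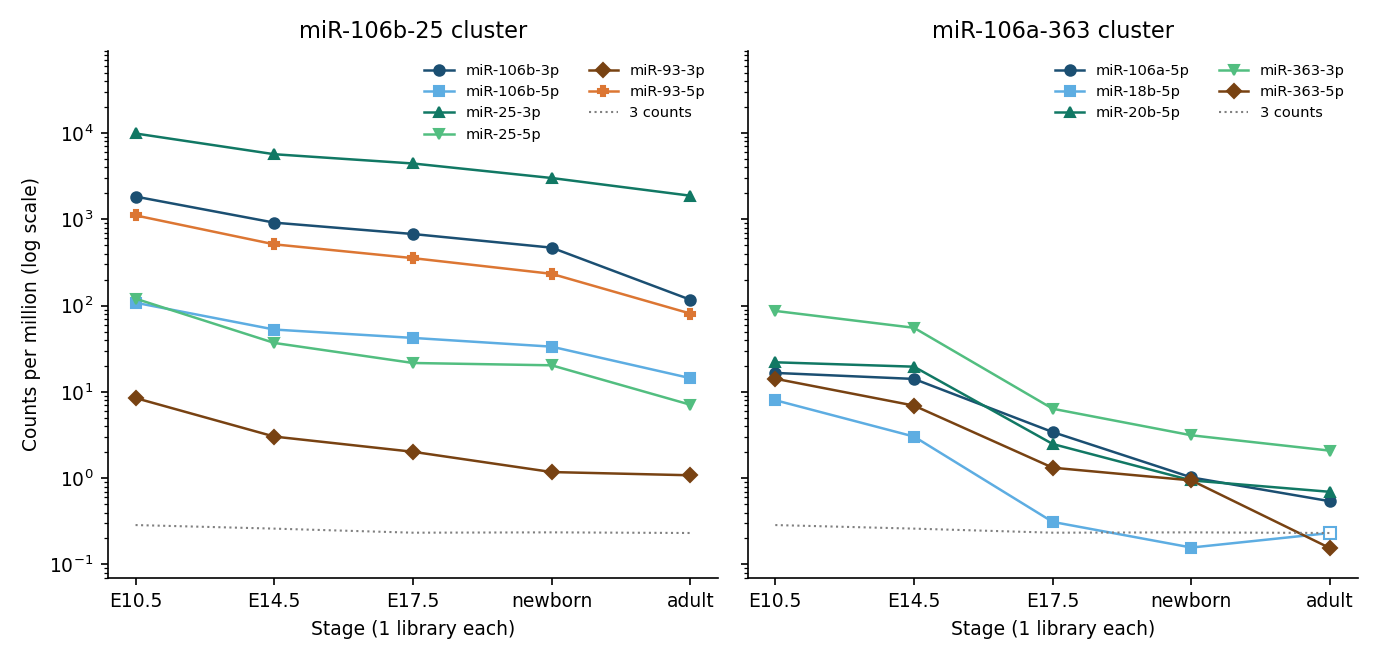
CPM of the 11 members with at least 10 counts in a library, on a log axis, at the 5 stages, miR-106b-25 on the left and miR-106a-363 on the right, 1 library a stage. The dotted line marks 3 counts, and the open symbol is miR-18b-5p with 0 counts in the adult, drawn at that line. On the left every line is lower at each later stage, and on the right all 5 are lower by over 4-fold at E17.5 than at E14.5.

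In miR-106a-363 the miR-92 seed member was again the most abundant. miR-363-3p had 910 counts in E10.5 hearts, 638 in E14.5 hearts, 82 in E17.5 hearts, 40 in newborns and 27 in adults (86.8, 55.4, 6.38, 3.14 and 2.08 CPM). At E10.5 and E14.5 it reached counts close to those of miR-106b-5p, and at E14.5 the 638 and 609 counts did not differ beyond counting error (ratio 1.05, 0.936 to 1.17). From E17.5 on it stood below every miR-106b-25 arm except miR-93-3p. It was 8.67-fold lower at E17.5 than at E14.5 (6.88 to 11.1). Its partner arm miR-363-5p had 149 counts in E10.5 hearts, 80 in E14.5 hearts, 17 in E17.5 hearts, 12 in newborns and 2 in adults, and was 5.25-fold lower at E17.5 than at E14.5 (3.08 to 9.45). The 3p arm made up 82.8% of this hairpin at E17.5 (74.2 to 89.0) and 88.9% at E14.5 (86.3 to 91.0), so both arms were lower by like amounts.

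The 2 miR-17 seed members of the X-linked cluster shared a shape. miR-20b-5p had 231 counts in E10.5 hearts, 226 in E14.5 hearts, 32 in E17.5 hearts, 12 in newborns and 9 in adults. miR-106a-5p had 174 counts in E10.5 hearts, 163 in E14.5 hearts, 44 in E17.5 hearts, 13 in newborns and 7 in adults. Neither differed beyond counting error in E14.5 against E10.5: the CPM ratios were 0.889 for miR-20b-5p (0.737 to 1.07) and 0.852 for miR-106a-5p (0.684 to 1.06). Their log2 differences of -0.16 and -0.22 turned to 0.50 and 0.43 under median-ratio scaling, and to 0.22 and 0.16 with the 10 most abundant miRNAs left out of the totals. At E17.5 miR-20b-5p was 7.87-fold lower than at E14.5 (5.42 to 11.8) and miR-106a-5p 4.13-fold lower (2.94 to 5.90). The miR-18 seed member miR-18b-5p had 84 counts in E10.5 hearts, 35 in E14.5 hearts, 4 in E17.5 hearts, 2 in newborns and 0 in adults. With the adult set at the limit of 3 counts in that library, it was 34.6-fold lower in CPM there than at E10.5. The exact interval from the 2 counts starts at 27.5-fold. Its log2 difference, -3.17, was -2.29 under median-ratio scaling.

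The order of the 11 members was stable at the top and blurred at the bottom. miR-25-3p, miR-106b-3p and miR-93-5p ranked highest, in that order, in every library, each apart from the next beyond counting error. At E10.5 the neighbours that could not be told apart were miR-106a-5p with miR-363-5p (ratio 1.17, 0.933 to 1.46) and miR-93-3p with miR-18b-5p (1.06, 0.777 to 1.44). At E14.5 these were miR-363-3p with miR-106b-5p, and miR-93-3p with miR-18b-5p, at 35 counts each. At E17.5 miR-106a-5p, miR-20b-5p, miR-93-3p and miR-363-5p formed a run of neighbours within counting error, as miR-93-3p, miR-106a-5p, miR-20b-5p and miR-363-5p did in the newborn. In the adult no pair of neighbours from miR-363-3p down to miR-363-5p differed beyond counting error.

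Set against all miRNAs, the step from E14.5 to E17.5 was the one in which the clusters parted. Only miRNAs with 10 or more counts in one stage of a pair were compared, and each was counted as lower or higher where log2(CPM + 1) differed by at least 1, a 2-fold limit of size and not a test. At E17.5 against E14.5, 0 of the 6 members of miR-106b-25 were lower and 5 of the 5 compared members of miR-106a-363, beside 5.6% of all 679 miRNAs compared, and 0 were higher, beside 1.03%. The log2 differences ran from -0.75 for miR-25-5p to -0.32 for miR-106b-5p in miR-106b-25, and from -2.93 for miR-363-3p to -1.62 for miR-18b-5p in the X-linked cluster. The added 1 CPM narrows the differences of scarce members, and so affects their ranks. Without it miR-18b-5p, at 35 and 4 counts, was 9.75-fold lower (3.49 to 37.8). With a pseudocount of 0.1 its log2 difference was -2.93. miR-363-3p and miR-20b-5p ranked 2 and 3 from the lowest of the 679, and the other members of their cluster ranked 15 to 17. The median of all 679 was -0.20. Again 0 and 5 were lower under median-ratio scaling, where 3.24% of all miRNAs were, and with the 10 most abundant miRNAs left out of the totals, where 7.22% were.

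Another arm of the X-linked cluster was also lower at E17.5. miR-92a-2-5p, which the name rule leaves out and which only the miR-92a-2 hairpin can give, had 7 counts in E10.5 hearts, 52 in E14.5 hearts, 5 in E17.5 hearts, 0 in newborns and 1 in adults. It was 11.6-fold lower at E17.5 than at E14.5 (4.66 to 37.2) and 6.75-fold higher at E14.5 than at E10.5 (3.06 to 17.6). Its counterpart on chromosome 14, miR-92a-1-5p, had 144 counts in E10.5 hearts, 60 in E14.5 hearts, 21 in E17.5 hearts, 11 in newborns and 3 in adults, lower at each later stage. The 5 members above were all lower in CPM at E14.5 than at E10.5, but under median-ratio scaling miR-20b-5p, miR-106a-5p and miR-363-3p were higher there, by 0.50, 0.43 and 0.05 on the log2 scale.

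miRNAs of other cell types also differed at this step. The 3 listed epithelial miRNAs, miR-200a-3p, miR-200b-3p and miR-205-5p, summed to 992 CPM in E10.5 hearts, 1196 in E14.5 hearts, 605 in E17.5 hearts, 42.6 in newborns and 10.7 in adults, where miR-205-5p was at 0. The liver miRNA miR-122-5p stood at 894 CPM in E10.5 hearts, 118 in E14.5 hearts, 619 in E17.5 hearts, 105 in newborns and 33.3 in adults. It was thus raised in both embryonic libraries that the adult is compared with. The part of such cells in the lower miR-106a-363 counts was not tested. By profile, after subtracting each miRNA's own mean of log2(CPM + 1) over the 5 stages, the miRNA nearest to the miR-106a-363 sum among 434 others with at least 100 counts in a library was miR-182-5p (root mean square distance 0.36). It had 982 CPM in E10.5 hearts, 896 in E14.5 hearts, 212 in E17.5 hearts, 65.3 in newborns and 37.4 in adults. miR-653-5p (0.56), miR-183-5p (0.59), miR-96-5p (0.59) and miR-675-5p (0.73) followed. miR-182, miR-183 and miR-96 come from 1 cluster, known from sensory cells and epithelia.

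**Figure D3:**
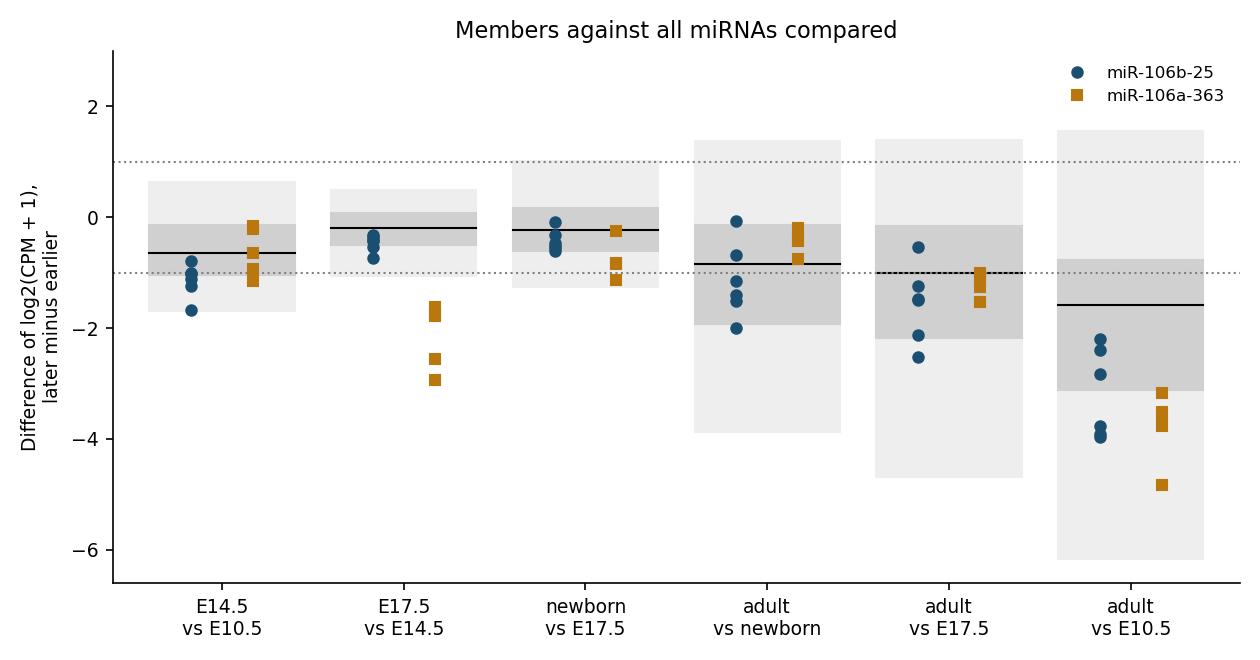
Differences of log2(CPM + 1), later minus earlier stage, for each compared member of miR-106b-25 (circles) and miR-106a-363 (squares) in 6 comparisons. Light boxes span the 5th to 95th percentile of all miRNAs compared, dark boxes the 25th to 75th, black lines the median, and dotted lines the 2-fold limit. At E17.5 against E14.5 the circles lie between -0.75 and -0.32, and the squares between -2.93 and -1.62, below the light box.

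Counted by the 2-fold limit in CPM, the earlier step showed the reverse weighting, though the ratio between clusters differed by only 0.821-fold (0.760 to 0.887). At E14.5 against E10.5, 5 of 6 members of miR-106b-25 and 1 of 5 of miR-106a-363 were lower, beside 27.9% of 763 miRNAs, and 0 were higher, beside 2.88%. The 5 were miR-25-5p (log2 difference -1.68), miR-93-3p (-1.23), miR-93-5p (-1.11), miR-106b-5p (-1.02) and miR-106b-3p (-1.003), and the member of miR-106a-363 was miR-18b-5p (-1.16). Several lay close to the limit, and under median-ratio scaling 0 of the 11 were lower, where 5.11% of all miRNAs were. The sums were 1.81-fold lower for miR-106b-25 (1.80 to 1.83) and 1.49-fold lower for miR-106a-363 (1.38 to 1.61). The median log2 difference of all miRNAs was -0.64 (-0.07 under median-ratio scaling), beside medians of -1.07 for miR-106b-25 and -0.64 for miR-106a-363.

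Across birth both clusters were lower by modest amounts. In the newborn against E17.5, 0 of 6 members of miR-106b-25 and 1 of 4 compared members of miR-106a-363 were lower, beside 9.51% of 673 miRNAs, and 0 were higher, beside 5.05%. That member was miR-106a-5p, at 1.02 CPM in the newborn and 3.42 CPM at E17.5 (3.35-fold lower, 1.77 to 6.79). The sums were 1.47-fold lower for miR-106b-25 (1.45 to 1.48) and 2.25-fold lower for miR-106a-363 (1.71 to 2.96). The 3 listed neural miRNAs summed to 13605 CPM in the newborn and 468 CPM at E17.5, and the part of neural tissue in these differences was not tested.

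In the adult against the newborn, 4 of 6 members of miR-106b-25 were lower and 0 of 4 of miR-106a-363, beside 43.2% of 636 miRNAs, with 0 higher beside 6.76%. The 4 were miR-106b-3p (log2 difference -1.996), miR-93-5p (-1.52), miR-25-5p (-1.40) and miR-106b-5p (-1.16), while miR-25-3p stood at -0.68. Under median-ratio scaling 0 of 6 and 0 of 4 were lower, where 29.2% of all miRNAs were lower and 23.7% higher. At 2 to 40 counts in either library, the miR-106a-363 members gave wide intervals, such as 1.51-fold lower for miR-363-3p (0.902 to 2.55). With 1 CPM added, miR-20b-5p and miR-363-5p, each at 0.942 CPM in the newborn, could not reach the limit even at 0 counts. Without it, miR-363-5p was 6.10-fold lower in CPM (1.36 to 56.2), while miR-106a-5p, miR-20b-5p and miR-363-3p lay within counting error. The sums were 1.71-fold lower for miR-106a-363 (1.18 to 2.51) and 1.80-fold lower for miR-106b-25 (1.77 to 1.82) in CPM. Against E17.5, which avoids the newborn library, 5 of 6 and 4 of 4 members were lower in the adult, beside 50.8% of 648 miRNAs, and 0 were higher, beside 7.1%. Under median-ratio scaling 1 of these 10, miR-106b-3p, stayed past the limit downward, 0 were higher, and 30.4% of all miRNAs were lower and 26.2% higher. The log2 ratio of the miR-106b-25 sum in the adult over E17.5, -1.40 in CPM, was 0.03 under median-ratio scaling, so its direction depended on the scaling.

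Over the whole span, in the adult against E10.5, 6 of 6 and 5 of 5 compared members were lower, beside 68.2% of 765 miRNAs, and 0 were higher, beside 7.97%. The median log2 differences were -3.29 for miR-106b-25 and -3.72 for miR-106a-363, beside -1.59 for all (-0.40 under median-ratio scaling). Under median-ratio scaling 3 of 6 and 5 of 5 were lower, where 33.1% of all miRNAs were lower and 25% higher. The difference in the ratio between clusters needs no scaling: miR-106b-25 stood 6.54-fold higher relative to miR-106a-363 in the adult than at E10.5 (4.89 to 8.74). Without miR-25 and miR-363 this log2 change, 2.71, was 1.23.

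The remaining paralogue, miR-17-92, gave a yardstick inside each library. It lies on chromosome 14 and has 10 listed arms of its own, which summed to 4916 CPM in E10.5 hearts, 1893 in E14.5 hearts, 1201 in E17.5 hearts, 589 in newborns and 188 in adults. The miR-106b-25 sum was 2.66 times this in E10.5 hearts, 3.81 times in E14.5 hearts, 4.61 times in E17.5 hearts, 6.40 times in newborns and 11.2 times in adults, and each of these steps was beyond counting error. The miR-106a-363 sum was 3.00% of it in E10.5 hearts (2.85 to 3.16), 5.24% in E14.5 hearts (4.93 to 5.56), 1.16% in E17.5 hearts (0.995 to 1.34), 1.05% in newborns (0.832 to 1.31) and 1.93% in adults (1.41 to 2.57). Relative to these arms, then, the miR-106b-25 sum was higher at each later stage, but its last step rested on miR-25. The seed relative of miR-25-3p, miR-92a-3p, is not among the 10 arms. Without miR-25, the sum's log2 CPM ratio in the adult over the newborn was -1.79, against -1.65 for the arms, so the adult then lay below the newborn. At E14.5, E17.5 and birth, each against the stage before, it still gained on the arms (-1.04, -0.47 and -0.54, against -1.38, -0.66 and -1.03). The miR-106a-363 sum was highest relative to miR-17-92 at E14.5. Of the 10 arms, 8 were compared in the adult against E10.5 and all 8 were lower in CPM, beside 68.2% of all miRNAs, with a median log2 difference of -3.64. At E17.5 against E14.5, 1 of 8 was lower, miR-92a-1-5p, beside 5.6%.

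The closest relatives made the same point one pair at a time. miR-106a-5p had 0.703% of the counts of miR-17-5p in E10.5 hearts (0.602 to 0.816), 1.49% in E14.5 hearts (1.27 to 1.74), 0.550% in E17.5 hearts (0.399 to 0.738), 0.421% in newborns (0.224 to 0.721) and 0.811% in adults (0.325 to 1.68). miR-20b-5p had 0.947% of those of miR-20a-5p in E10.5 hearts, 2.31% in E14.5 hearts, 0.490% in E17.5 hearts, 0.316% in newborns and 0.697% in adults. miR-18b-5p had 11.2% of those of miR-18a-5p in E10.5 hearts (8.81 to 14.0), 14.9% in E14.5 hearts (10.1 to 21.3) and 2.40% in E17.5 hearts (0.645 to 6.25). In E14.5 against E10.5 the shares were 2.12-fold higher for miR-106a-5p (1.71 to 2.62) and 2.44-fold higher for miR-20b-5p (2.03 to 2.94), while for miR-18b-5p the 1.33-fold difference lay within counting error (0.875 to 2.03). None of the 3 kept a fixed share of its near-identical relative: at E17.5 against E14.5 the shares were 2.71-fold lower for miR-106a-5p (1.94 to 3.78), 4.72-fold lower for miR-20b-5p (3.25 to 6.84) and 6.22-fold lower for miR-18b-5p (2.17 to 17.8). miR-363-3p, which has no near-identical relative, was 6.09-fold lower relative to miR-92a-3p in the same comparison (4.84 to 7.66). In the newborn and the adult, where miR-106a-5p and miR-20b-5p had 7 to 13 counts, their shares could not be told from those at E17.5. The adult shares were also within counting error of those at E10.5, at 1.15-fold for miR-106a-5p (0.540 to 2.46) and 0.735-fold for miR-20b-5p (0.377 to 1.43).

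**Figure D4:**
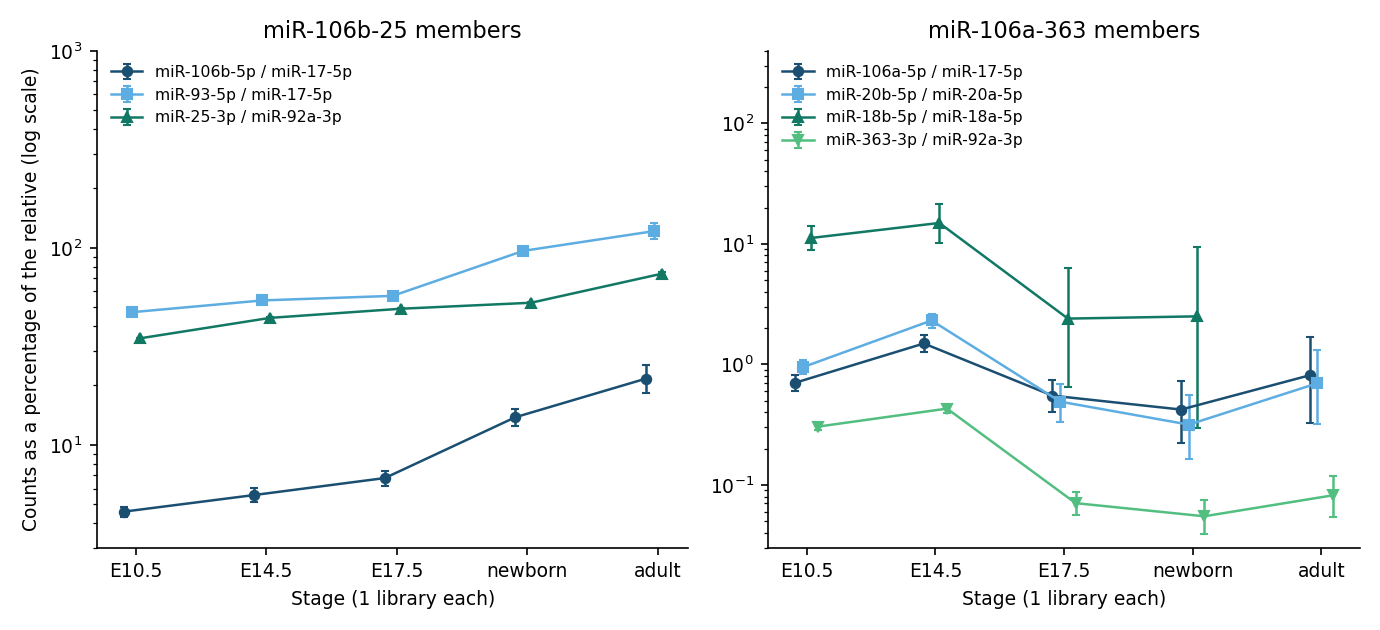
Counts of each member as a percentage of the counts of its closest counterpart in or shared with miR-17-92, inside each library, on log axes of different range, with 95% exact intervals. On the left the miR-106b-25 members gain on their counterparts, miR-93-5p reaching 121% of miR-17-5p in the adult. On the right all 4 ratios are highest at E14.5 and lower at E17.5, and miR-18b-5p is not drawn in the adult, where it had 0 counts.

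For miR-106b-25 such ratios were higher at each later stage, also at E17.5, where those of miR-106a-363 were lower than at E14.5. miR-93-5p had 47.1% of the counts of miR-17-5p in E10.5 hearts (46.1 to 48.1), 54.1% in E14.5 hearts, 57.0% in E17.5 hearts, 96.4% in newborns (91.7 to 101) and 121% in adults (111 to 133). miR-106b-5p had 4.58% in E10.5 hearts, 5.56% in E14.5 hearts, 6.78% in E17.5 hearts, 13.8% in newborns and 21.7% in adults. miR-93-5p thus outnumbered miR-17-5p in the adult and was outnumbered by it in the 3 embryonic libraries. miR-25-3p had 34.7% of the counts of miR-92a-3p in E10.5 hearts, 44.1% in E14.5 hearts, 49.0% in E17.5 hearts, 52.6% in newborns and 73.8% in adults (72.6 to 75.0). miR-92a-3p is made by both miR-17-92 and the X-linked cluster.

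Summed by seed, these shares show how much of each family came from the listed members of the 2 clusters. All 7 miRNAs of the table with the seed AAAGUGC summed to 5946 CPM in E10.5 hearts, 2398 in E14.5 hearts, 1535 in E17.5 hearts, 810 in newborns and 263 in adults. miR-106b-25, through miR-93-5p and miR-106b-5p, gave 20.5% of these counts in E10.5 hearts (20.2 to 20.8), 23.6% in E14.5 hearts, 25.9% in E17.5 hearts, 33.0% in newborns and 36.3% in adults (34.6 to 37.9). miR-106a-363 gave 0.650% in E10.5 hearts, 1.41% in E14.5 hearts, 0.385% in E17.5 hearts, 0.242% in newborns and 0.470% in adults. The part from miR-106b-25 was thus larger at each later stage, and that from miR-106a-363 was largest at E14.5.

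The 6 miRNAs with the seed AUUGCAC summed to 38829 CPM in E10.5 hearts, 18785 in E14.5 hearts, 13848 in E17.5 hearts, 8864 in newborns and 4457 in adults. miR-25-3p gave 25.5% of these in E10.5 hearts (25.3 to 25.6), 30.3% in E14.5 hearts, 32.1% in E17.5 hearts, 34.0% in newborns and 42.2% in adults (41.8 to 42.6), and miR-363-3p gave at most 0.295%, in E14.5 hearts. The listed members of the X-linked cluster thus gave at most 1.41% of the first family and 0.295% of the second in these libraries. The second value is not a limit for the cluster, because miR-92a-3p held 73.5% of that family at E10.5 and 57.1% in the adult. The part of miR-92a-3p made by the X-linked cluster could not be counted. miR-18a-5p and miR-18b-5p were the 2 miRNAs of the table matched to the seed AAGGUGC, and miR-18b-5p gave 10.0% of that pair in E10.5 hearts (8.09 to 12.3), 12.96% in E14.5 hearts (9.198 to 17.6) and 2.34% in E17.5 hearts (0.641 to 5.88).

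**Figure D5:**
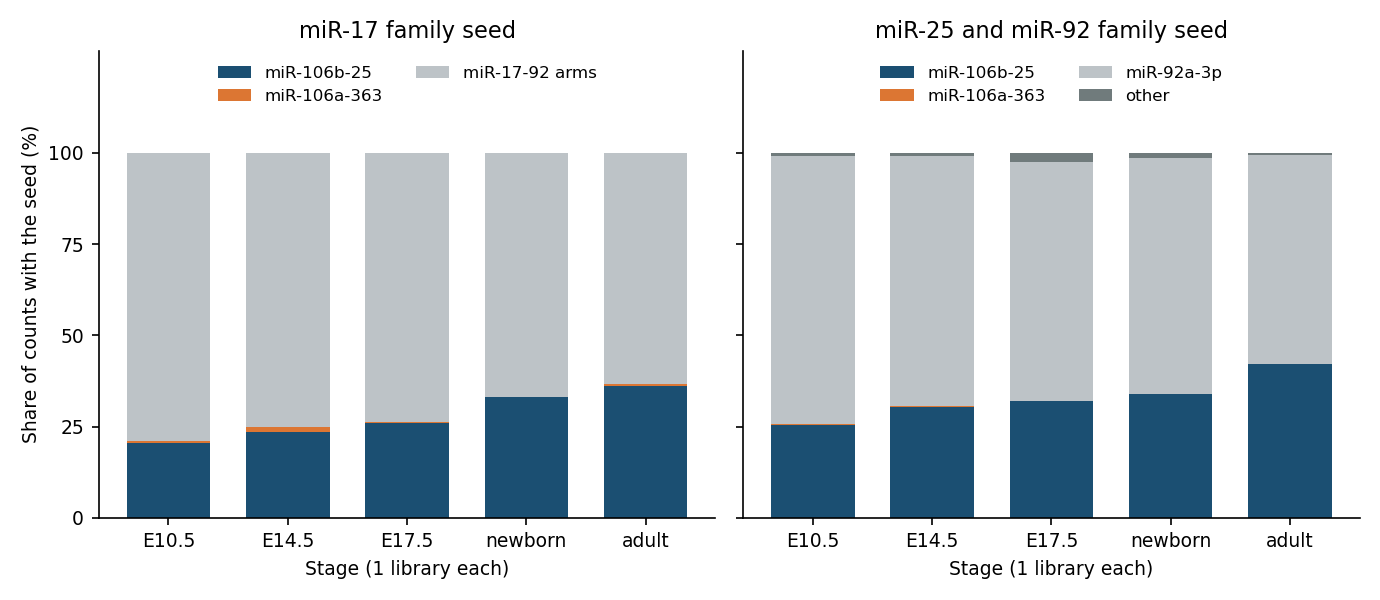
Share of the counts of all miRNAs with the miR-17 family seed (left) and the miR-25 and miR-92 family seed (right) that came from each source, at the 5 stages, 1 library each. The miR-106b-25 part grows from left to right, to 36.3% and 42.2% in the adult. The part of the listed miR-106a-363 members is at most 1.41%. On the right miR-92a-3p, made by both miR-17-92 and the X-linked cluster, is drawn as its own source.

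The profile nearest to the miR-106b-25 sum, by the same measure and among the same 434 miRNAs, was that of let-7e-3p (distance 0.05), followed by miR-125a-3p (0.06), miR-423-3p (0.06), miR-342-3p (0.11) and miR-1934-3p (0.12). miR-423-3p, the most abundant of these, had 4748 CPM in E10.5 hearts, 2292 in E14.5 hearts, 1841 in E17.5 hearts, 1249 in newborns and 693 in adults. These distances describe 5 libraries only. The miR-25 hairpin made up 76.6% of the miR-106b-25 sum at E10.5 and 89.8% in the adult, so the profile is largely that of miR-25. The miR-106a-363 sum stood at a distance of 1.23 from that of miR-106b-25, miR-17-5p at 0.88, miR-20a-5p at 0.63 and miR-92a-3p at 0.28.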

How the data were processed

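Hearts were frozen and RNA extracted with Trizol, and small RNA of 18 to 30 nucleotides was ligated to adapters with unique molecular identifiers, per the labels' protocols. The deposited values for mature miRNAs were whole numbers with unequal column totals and were taken as the authors' raw counts, although the table is named for FPKM. The sources used here do not say whether reads or identifiers were counted. The submitters' processing notes name HISAT, HISAT2, Bowtie, Bowtie2, RSEM and mm9 without roles. The long RNA table was not used, because its loci could not be paired with gene names, so Mcm7 is not analysed here.

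Counts were divided by the library total (CPM). With 1 library a stage no test was run. Ratios have 95% intervals (exact, Clopper-Pearson, given the sum of both counts), shares Wilson or exact binomial ones, and changes of ratios log-scale intervals from the 4 counts. Comparisons used a pseudocount of 1 CPM, at least 10 counts in either stage and a 2-fold limit. Named miRNAs are all members, the miR-17-92 arms, the closest sequence and the 5 nearest profiles to each cluster sum. Of 3 leukocyte marker names listed 1 was found, miR-150-5p, at 9.73 to 101 CPM. The erythroid pair summed to 103 to 339 CPM and endothelial miR-126a-3p stood at 20571 to 36951 CPM. Alternatives were median-ratio scaling over 750 miRNAs with counts in every library, totals without the 10 most abundant miRNAs, pseudocounts of 0.1 and 5, no filter or 100 counts, a 4-fold limit, major arms only, and sums without the top or the near-identical hairpins. Members and lists were chosen with earlier results of these data known. Scripts ran in Python 3.11.15 with scipy 1.17.1 and were tested on simulated data.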

Additional observations from a re-analysis of the deposited data

How the results depend on the processing

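No paired analysis was possible because each stage has 1 library. Comparisons run A to F: A is E14.5 against E10.5, B E17.5 against E14.5, C newborn against E17.5, D adult against newborn, E adult against E17.5 and F adult against E10.5. Under median-ratio scaling the log2 ratios of the miR-106b-25 sum in A to F were -0.16, -0.14, -0.33, 0.36, 0.034 and -0.26, against -0.86, -0.38, -0.55, -0.85, -1.40 and -2.64 in CPM. Those of the miR-106a-363 sum in A, B, D, E and F were 0.13, -2.59, 0.43, -0.51 and -2.97, against -0.57, -2.83, -0.77, -1.94 and -5.35 in CPM. The difference of miR-25-3p in E, -1.24, was 0.19 under this scaling. With the 10 most abundant miRNAs left out of the totals, the miR-106b-25 sums gave -0.46, -0.24, -0.40, -0.64, -1.04 and -1.75 in A to F, and the miR-106a-363 sums -0.18 in A and -4.46 in F.

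Of the members compared, 6 of 11, 5 of 11, 1 of 10, 4 of 10, 9 of 10 and 11 of 11 were lower in A to F. The shares of all miRNAs are given with each comparison above. Smaller relative moves of these counts under the alternatives are not listed. Under median-ratio scaling there were 0 in A, C and D and 1 in E. Of all miRNAs 5.11%, 6.24%, 29.2% and 30.4% were lower there, in the order A, C, D and E. Without the 10 most abundant miRNAs there was 1 in A, beside 18% of all miRNAs. With a pseudocount of 5 there were 2, 3, 0 and 5 in A, B, C and E, and with 0.1 there were 2 in C. A minimum of 100 counts, which leaves fewer members, gave 3 of 8, 0 of 5 and 5 of 5 in B, C and E. A 4-fold limit gave 0, 2, 0, 0 and 2 in A to E. The shares of all miRNAs under the pseudocounts, this minimum and this limit are not given here, so these counts have no background beside them.

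Without miR-25 and miR-363, the miR-106b-25 log2 ratios in A, B, D, E and F were -1.04, -0.47, -1.79, -2.33 and -3.84, and the miR-106a-363 ones in A and B -0.34 and -2.57. The log2 change of the ratio between clusters in A to F was then -0.71, 2.10, 1.01, -1.18, -0.17 and 1.23, against -0.28, 2.45, 0.61, -0.07, 0.54 and 2.71 with them. With miR-106a, miR-18b and miR-20b left out it was -0.16 in A. The cause was not tested. Counting depth limits miR-106a-363 from E17.5 on, where no arm had more than 82 counts.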
